A study of Mus musculus with 3 samples.

Results

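Ribosomal protein genes encode the proteins that, together with ribosomal RNA, build the cytoplasmic ribosome. Names that begin with Rpl belong to the large subunit and names that begin with Rps to the small subunit. Because each ribosome needs nearly every protein in equal number, their transcripts usually rise and fall together, and they are among the most abundant messages of dividing and growing cells. Most of these messages start with a C followed by a run of pyrimidines, the 5′ terminal oligopyrimidine motif, through which mTOR and the RNA-binding protein *Larp1* control their translation. Genes were taken by their symbols, Rpl or Rps followed by a number and at most a short suffix. Of 85 genes with such a name, 64 reached a level of 50 CPM (UMIs of a gene per 1000000 UMIs) in at least 1 of 3 single-cell libraries, and these 64 genes, 35 of the large and 29 of the small subunit, are described here among the 27755 genes listed for the D10 culture and the E14.5 tail and 25936 for D6 PM. The rule itself uses symbols and levels and no difference between groups, although it was set with earlier results of these data known. The other 21 genes stayed below that level in every library. Just inside the threshold was *Rpl9*, with 62.1 CPM in D6 PM, and just outside it was *Rpl31*, with 48.7 CPM there. GENCODE M21 lists 63 of the 64 as protein coding, and *Rps4l* as a transcribed processed pseudogene. Some proteins of the ribosome, such as *Rplp0*, *Rpsa*, *Rack1* and *Fau*, carry other names and were kept as a separate list.

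The libraries came from mouse cells, with 1 library per group. For D6 PM, mESCs carrying the ScxGFP tendon reporter were kept on irradiated mouse embryonic fibroblast feeders before differentiation, then formed embryoid bodies with LDN-193189, a BMP receptor inhibitor, and were driven toward paraxial mesoderm (PM) with CHIR, a WNT activator, and LDN-193189. For the D10 culture, such cells were grown further in TGFβ1, the hedgehog agonist SAG and FGF2, and the whole monolayer was taken without sorting for the reporter. The E14.5 tail was cut from a mouse embryo and received none of these agents. Dead cells were depleted from each suspension. The series set out to compare the ES-derived tendon cells with their counterparts in the embryo. Each group is 1 library whose cells cannot stand as replicates, so groups were compared without a test. Intervals in parentheses are exact 95% intervals for counting error alone, Clopper-Pearson for a share, Poisson for a level and conditional binomial for a ratio, and they do not include the spread between cultures or embryos.

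Counts are unique molecular identifiers (UMIs), each marking a captured transcript. There were 7821 cells from the culture, 2052 from the tail and 5954 from D6 PM, and the median cell held 5622, 13512 and 8171 UMIs in this order. Between 3 and 10 cell barcodes were shared by any pair of libraries. Each cell carries the cluster code that was deposited with it. The codes of the culture and the tail belong to 1 scheme, whereas the codes of D6 PM are a separate numbering. By marker genes, code 1 is tendon-like, code 2 is led by proliferation genes, code 4 is cartilage-like, code 6 is erythroid-like and code 11 is endothelial-like in both the culture and the tail. Code 3 of the culture and code 2 of D6 PM are pluripotent-like. In the tail, code 5 is muscle-like, code 8 epithelial-like, code 9 white blood-like, code 10 nerve-like and code 12 erythroid-like. Tail code 9 is named by its leading genes but is mixed, with tendon markers at 7191 CPM beside white blood markers at 2443 CPM. Other codes are called by number and leading genes. Tail cells outside the erythroid-like codes carried haemoglobin UMIs at up to 1.20% of their total, and whether this touches the ribosomal protein levels was not tested.

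Short stretches around the annotated transcription start were searched for a few fixed strings of letters related to the motif described above. RefSeq promoter entries (GRCm38.p6) were found for 47 of the 64 genes, and a window of 30 bases was read, 15 on each side of the annotated start. The motif CTTTC was searched on the sense strand, as were its variant CTTTT and the frequently overlapping CCTTT, and capitals mark every match. At least 1 of them was in 15 of 47 members (31.9%), compared with 2163 of the windows of 27025 genes (8.0%). These 8 genes are shown because the results below turn on them, the pairs *Rps27* and *Rps27l* and *Rpl22* and *Rpl22l1* being a standard protein beside its close relative. The windows lie at chr17:24720048-24720077 (plus strand) for *Rps2*, chr17:33955651-33955680 (minus) for *Rps18*, chr10:23787195-23787224 (minus) for *Rps12*, chr3:130730384-130730413 (minus) for *Rpl34*, chr3:90213634-90213663 (minus) for *Rps27*, chr9:66946071-66946100 (plus) for *Rps27l*, chr4:152325711-152325740 (plus) for *Rpl22* and chr3:28805493-28805522 (plus) for *Rpl22l1*. A match is a description of letters near an annotated start, and its absence says only that these letters are not in the window. The search did not ask for a C and a run of pyrimidines at the start itself. A window without a match may thus still hold the motif, and that of *Rps18* has such a run at its annotated start.
Rps2: aggcagtcgagatctcgcgcttcttggagc
Rps18: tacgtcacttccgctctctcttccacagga
Rps12: taccgtcatgcggccaccgccggCCTTTTc
Rpl34: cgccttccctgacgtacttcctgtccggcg
Rps27: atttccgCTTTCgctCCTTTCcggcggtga
Rps27l: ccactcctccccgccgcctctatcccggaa
Rpl22: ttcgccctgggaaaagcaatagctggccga
Rpl22l1: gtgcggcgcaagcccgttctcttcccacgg
Of these windows, those of *Rps12* and *Rps27* hold a match and the other 6 do not.

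The 64 genes took a larger share of the RNA of D6 PM than of the other libraries. They held 6.64% (6.63 to 6.64) of all UMIs in the culture, 6.10% (6.09 to 6.11) in the tail and 10.1% (10.1 to 10.1) in D6 PM. Large and small subunit genes contributed nearly equally, with 3.30% and 3.33% in the culture, 3.06% and 3.04% in the tail, and 4.93% and 5.18% in D6 PM. Levels of single members spanned a wide range within a library, although the proteins are needed in equal number. *Rpl32* was the highest member in each library, with 5927 CPM in the culture, 4476 CPM in the tail and 9578 CPM in D6 PM. *Rps3* stood at 4137, 2904 and 7737 CPM in the same order. The 5 highest members made up 36.5% of the class in the culture, 30.5% in the tail and 38.2% in D6 PM. At the low end, *Rps12* was at 26.4 CPM in the culture and 26.1 CPM in the tail, *Rps2* was the lowest of all in the tail at 13.2 CPM, and *Rpl9* was among the lowest in D6 PM at 62.1 CPM. *Rpl5* and *Rpl11*, which bind *Mdm2* when ribosome assembly fails, are standard ribosomal proteins but stayed outside the class, at 14.7 and 18.2 CPM in the culture.

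Low levels of this kind are read against how the counts were made. Reads that matched several places were ignored by the authors, and many ribosomal protein genes have near-identical copies elsewhere in the genome. A single GENCODE M21 transcript was taken per gene, the longest protein-coding one where there was any. Its last 300 bases were cut into overlapping stretches of 50 bases, and each stretch was looked for in all other genes. No stretch was unique for *Rpl29*, *Rpl36a* and *Rps27*, 5.58% were unique for *Rps12*, 21.5% for *Rps18* and 21.9% for *Rps2*, whereas all were unique for *Rps3*, *Rpl15*, *Rps24* and *Rps27l*. *Rpl5* and *Rpl11* were also fully unique by this measure. The end of the transcript taken may not be the end that was captured, which was not tested. Across the 64 members, the Spearman correlation of the unique part with level was 0.208 in the culture, 0.232 in the tail and 0.212 in D6 PM. Across all 85 genes with such a name it was 0.164, 0.176 and 0.161 in the same order. Genes are not replicates, and how far shared sequence set any level was not tested.

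The share differed between cell types within each library. Within the culture, the pluripotent-like code 3 had 8.91% (8.90 to 8.93), compared with 5.52% (5.5 to 5.53) in the tendon-like code 1, 5.19% in the proliferation-led code 2, 6.82% in the cartilage-like code 4 and 7.35% in code 5, which was led by the muscle genes *Actc1* and *Myh3* but held pluripotent markers at 1569 CPM and epithelial markers at 953 CPM beside muscle markers at 572 CPM. Among codes of at least 50 cells, the highest share was 9.06% in code 6 and the lowest 4.20% (4.14 to 4.26) in code 9, whose leading genes were *Lyz2*, *Tyrobp* and *Mmp3*, a 2.16-fold range. Code 6 of the culture, although erythroid-like by its markers, had only 2.76% haemoglobin UMIs. It also held pluripotent markers at 3673 CPM, compared with 6482 CPM in code 3. Its epithelial markers were at 1143 CPM, and those of the pluripotent-like code 3 at 1158 CPM. In the tail, the tendon-like code 1 had 6.25% (6.23 to 6.26), the proliferation-led code 2 had 5.42%, the cartilage-like code 4 had 6.28%, the muscle-like code 5 had 8.14%, the epithelial-like code 8 had 9.09% and the white blood-like code 9 had 7.41%. Nerve-like cells of code 10 were far lower, at 2.55% (2.52 to 2.57). The erythroid-like codes 6 and 12 had 2.17% and 0.552%, but haemoglobin genes took 69.2% and 86.1% of their UMIs. Counted without mitochondrial and haemoglobin UMIs, the shares of these codes were 7.23% and 4.30%, while that of code 10 was 2.65%. Code 7 of the tail, with a median of 1881 UMIs per cell, had the highest share of that library at 10.3%. In D6 PM, code 1 (leading genes *Pomc*, *Rbp4* and *Pga5*) had 11.7%, the pluripotent-like code 2 had 10.3%, code 3 (cell cycle genes) had 10.2%, code 4 (*Zic4*, *Zic1* and *Myog*) had 8.20%, code 6 (haemoglobin and endothelial genes) had 11.5% and code 5 (*Clec4d*, *Cd5l* and *Mmp13*) had 6.26% (6.24 to 6.28).

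**Figure D1:**
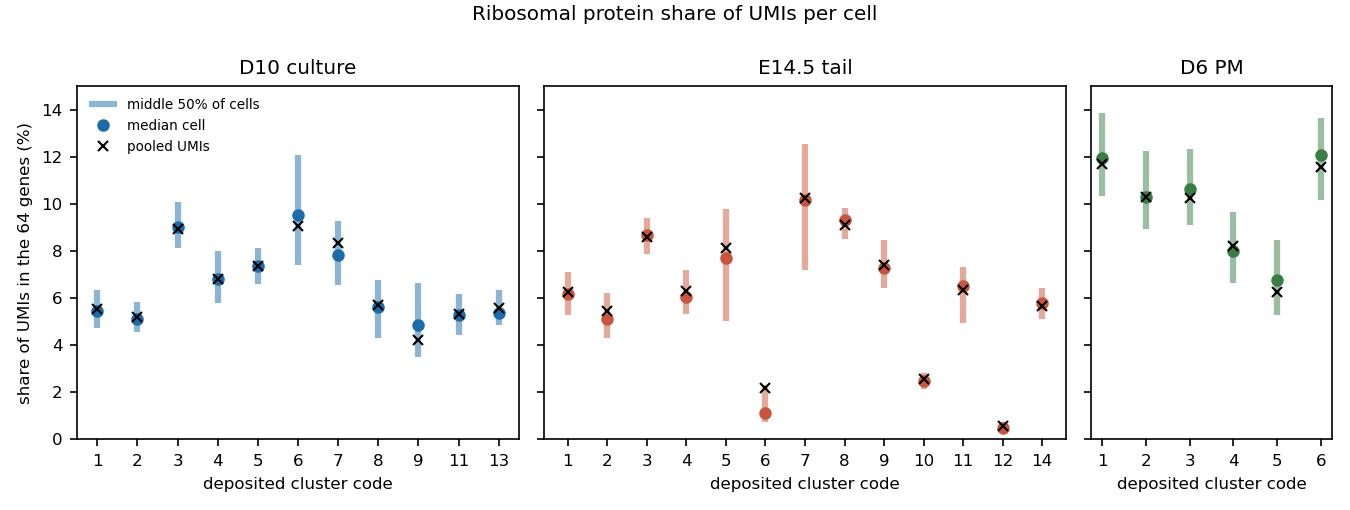
Share of UMIs in the 64 ribosomal protein genes (y axis, %) by deposited cluster code (x axis) in the 3 libraries; thick lines span the middle 50% of cells, circles are the median cell and crosses the share of the pooled UMIs. The nerve-like tail code 10 lies at 2.55%, the haemoglobin-rich tail codes 6 and 12 at 2.17% and 0.552%, and D6 PM code 1 at 11.7%.

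Cells varied around these values. In the tendon-like code 1, the middle 50% of cells spanned 4.71% to 6.33% in the culture and 5.28% to 7.12% in the tail. In D6 PM, cells of 1 code with more UMIs had a lower share, with a Spearman correlation across cells that was negative in 6 of 6 codes and lay between -0.406 and -0.0210. In the culture it was negative in 9 of 10 codes (-0.638 to 0.222) and in the tail in 4 of 11 codes (-0.0960 to 0.440). The number of UMIs is the denominator of the share, so these values describe the libraries only.

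Culture and tail were compared within the same cluster codes. In the tendon-like code 1, the class as a whole was lower in the culture, with a ratio of 0.883 (0.880 to 0.886). Single genes were usually lower still. The median member had a ratio of 0.675, whereas the median over all 4628 genes tested was 0.969. Of 60 members with at least 50 CPM in either group, 30 were at least 1.5-fold lower in the culture with an interval beyond 1, and 3 were at least 1.5-fold higher. Among all genes tested, 18.3% were lower and 15.5% were higher by the same rule. *Rps4x*, the X-linked form of a small subunit protein, had the lowest ratio, with 1056 CPM in the tail and 495 CPM in the culture, at 0.468 (0.455 to 0.482). *Rps10*, at 152 and 77.1 CPM, and *Rps20*, at 660 and 340 CPM, had ratios of 0.508 (0.471 to 0.547) and 0.515 (0.497 to 0.534).

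A member was called departing when its ratio was at least 1.5-fold above or below that of the median member, with its whole interval on that side of the median. A gene was tested when it reached 50 CPM in either group, so a gene that did so in 1 group alone was the higher there in level by selection, and its departure is a description. In code 1, 8 members departed upward and 0 downward. The median member lay below most genes here, so that 45.5% of all genes tested were above it by this rule and 6.61% below. *Rps2* departed by far the most, but it reached 50 CPM in the culture alone in this and every other comparison of culture with tail, so that upward was the only call open to it. *Rps27l* was at 737 CPM in the culture and 316 CPM in the tail, 2.33-fold higher (2.24 to 2.42) and 3.45-fold above the median member. *Rps4l* was at 438 and 215 CPM, 2.04-fold higher (1.94 to 2.14). *Rps27l* is known as a target of p53. *Mdm2*, another p53 target and the gene of its inhibitor, was at 91.0 and 51.3 CPM, 1.77-fold higher (1.60 to 1.96). By the same rule of level, 15.5% of all genes tested were higher. *Mdm2* is a single gene of a short list of regulators, and a part of p53 in these levels was not tested. The other 5 were among the more abundant members, apart from *Rpl29*. *Rpl8* was at 4248 and 3392 CPM, with a ratio of 1.25 (1.24 to 1.27). *Rpl32*, *Rps3* and *Rpl4* had ratios of 1.09, 1.15 and 1.03, so they departed from the class by being about level while most members were lower. *Rpl29* was at 527 and 431 CPM, but none of its stretches was unique.

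**Figure D2:**
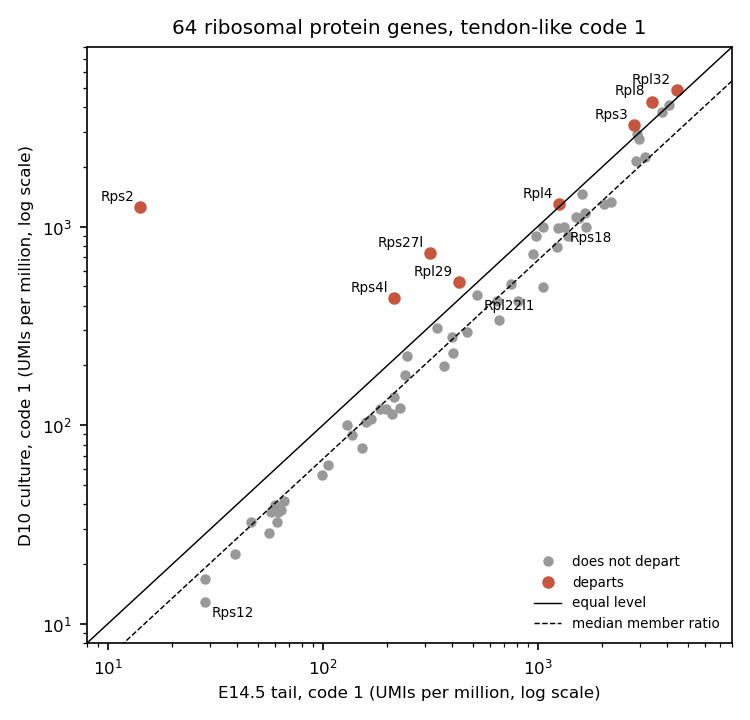
Level of the 64 genes in tendon-like code 1 of the D10 culture (y axis) against the E14.5 tail (x axis), in CPM on log scales; the solid line marks equal levels and the dashed line the median member ratio of 0.675, and coloured points are the departing members. Most points follow the dashed line, and *Rps2* lies at 14.2 in the tail and 1251 in the culture.

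Most of these members also departed in the other codes compared between both libraries. In code 2, with a class ratio of 0.957 (0.952 to 0.961) and a median member ratio of 0.760, 8 members departed upward and 0 downward, beside 32.9% and 6.69% of all genes. In code 4, where the class ratio was 1.09 (1.08 to 1.09), 9 departed upward and 0 downward, beside 24.9% and 10.3%. In the endothelial-like code 11, which had 58 culture and 71 tail cells, the class ratio was 0.839 (0.825 to 0.852), and 8 departed upward and 7 downward, beside 46% and 7.34%, with *Rpl9* and *Rpl13* of the 7 reaching 50 CPM in the tail alone. *Rps2*, *Rps27l*, *Rps4l*, *Rpl29* and *Rpl8* departed upward in each of codes 1, 2, 4 and 11. *Rps14* did so in codes 2, 4 and 11, and *Rpl32* and *Rps3* in codes 1, 2 and 4. By level, 15 of 57 members were lower and 3 higher in code 2, beside 15.3% and 14.6% of all genes, 7 of 61 lower and 4 higher in code 4, beside 17.5% and 14.7%, and 26 of 58 lower and 2 higher in code 11, beside 19.1% and 21.7%. These comparisons come from the same pair of libraries and are not independent of each other. Over the whole libraries the class ratio was 1.09 (1.09 to 1.09) and the median member ratio 0.822, with 10 members departing upward, beside 36.4% of all genes, and 0 downward, beside 8.53%, and by level 6 of 60 were lower and 4 higher, beside 14% and 21.4%. Without *Rps2*, members with higher levels had higher ratios of culture over tail. In code 1 the upper 29 members by level had a median ratio of 0.753 and the lower 30 a median ratio of 0.634, and the Spearman correlation of ratio with level across these 59 genes was 0.549. In codes 2, 4 and 11 it was 0.604, 0.569 and 0.610 across 56 to 60 genes. The points share both libraries and their depths, and genes are not replicates.

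*Rps2*, whose protein lies in the small subunit, separated the tail from the other libraries. It had 88735 UMIs in the culture (1662 CPM), 125061 UMIs in D6 PM (2412 CPM) and 413 UMIs in the tail (13.2 CPM). The culture was 126-fold (114 to 139) above the tail. Every tail code with at least 50 cells was low, from 3.77 CPM in code 12 to 21.2 CPM in code 8, and the tendon-like code 1 had 14.2 CPM (12 to 16.7), compared with 1251 CPM (1234 to 1268) in code 1 of the culture. Culture codes ranged from 1052 to 2448 CPM apart from code 9, at 251 CPM, and D6 PM codes ranged from 1821 to 3017 CPM apart from code 5, at 99.7 CPM. Among codes with at least 50 cells, those of the tail all lay below those of the other libraries. *Rps2* entered the class through the culture and D6 PM and was named with earlier results of these data known. How many other genes separate the libraries in this way was not counted, so this is a description. When each cell was thinned to 3000 UMIs, a *Rps2* UMI was found in 2508 of 2595 cells of culture code 1 (96.6%, 95.9 to 97.3), with 369 shallower cells left out, and in 31 of 678 cells of tail code 1 (4.57%, 3.13 to 6.43), with 7 left out. Without thinning, at median depths of 4918.5 and 13463 UMIs, the shares were 97.8% and 18.8%. In the same thinned cells *Rpl32* was found in 100% of both. No cell type of the tail can serve as one that should lack *Rps2*, so the share that free RNA gives was not measured. In all, 51 other genes share a stretch with the end of *Rps2*. In tail code 1, the 47 of them listed in the tables summed to 78.3 CPM, compared with 40.6 CPM in culture code 1, and the highest was at 11.4 CPM in the tail. None of these 47 was near the level of *Rps2* in the culture. Reads that matched several places were ignored and add to no gene, so these levels do not show where such reads came from. The part of shared sequence in the tail level of *Rps2* was not tested.

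**Figure D3:**
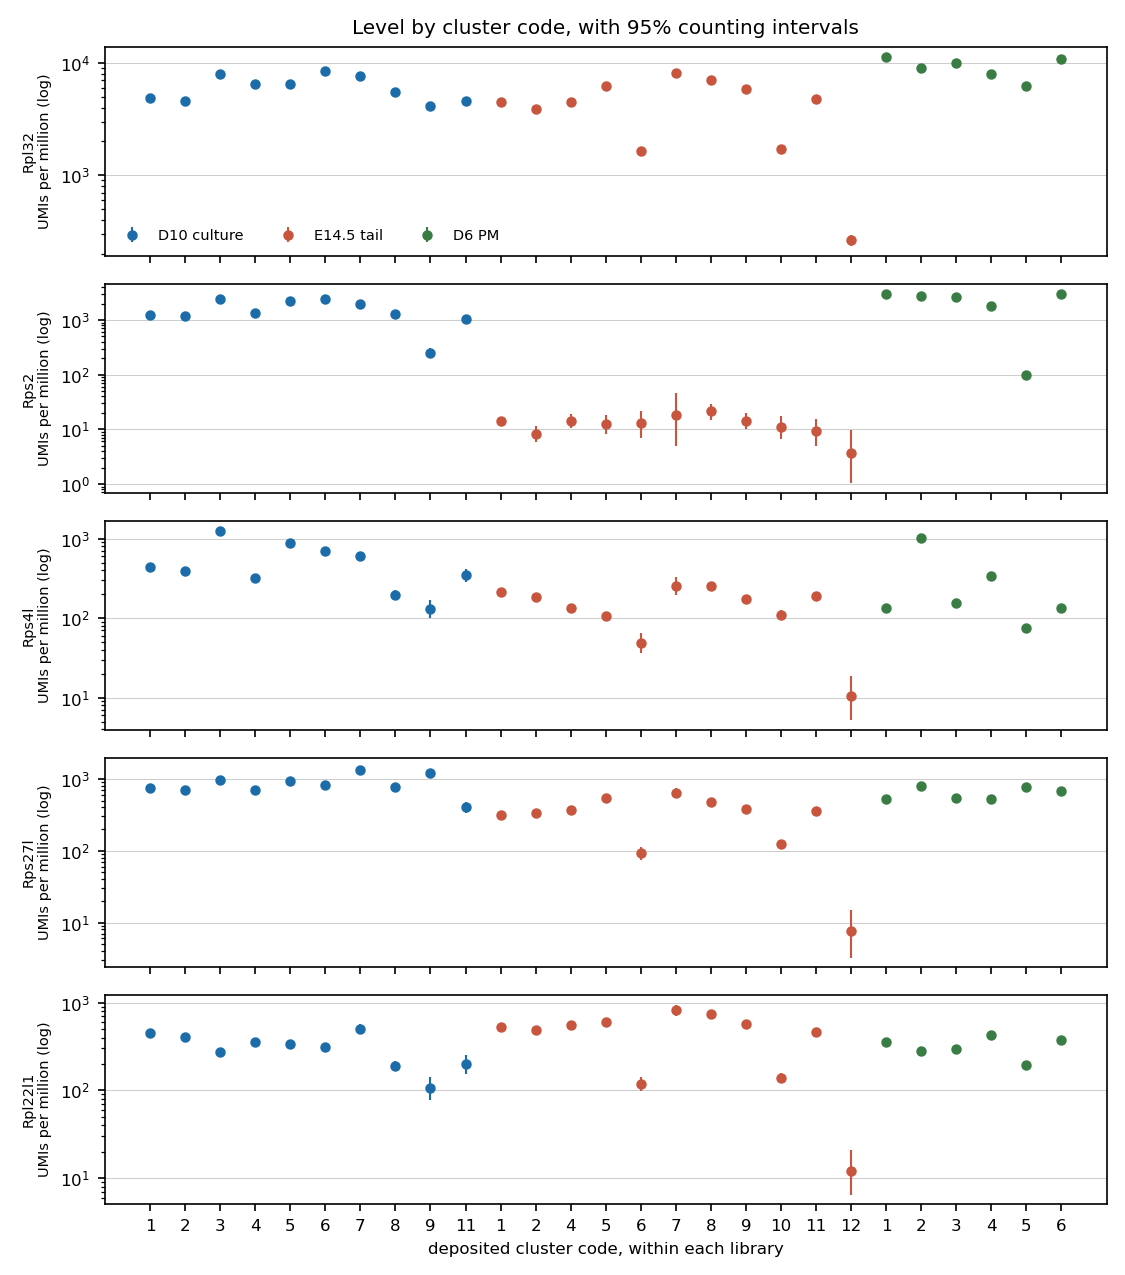
Level of *Rpl32*, *Rps2*, *Rps4l*, *Rps27l* and *Rpl22l1* (y axes, CPM, log scale) in each deposited cluster code with at least 50 cells (x axis), coloured by library, with exact 95% counting intervals. *Rps2* lies between 3.77 and 21.2 in all 11 tail codes shown and is at 99.7 in D6 PM code 5, where *Rpl32* is at 6185.

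The culture and D6 PM follow each other in the protocol, so their comparison asks how the class differs between the mesoderm stage and the end of tendon induction. The class was lower in the culture, with a ratio of 0.657 (0.656 to 0.658), and here single genes followed the class closely, with a median member ratio of 0.630. Of 64 members tested, 40 were at least 1.5-fold lower in the culture and 1 was higher, beside 10.8% and 17.2% of all 4523 genes. Departures were few, with 3 members upward and 1 downward, beside 65.9% and 3.74%. *Rps4l* was at 659 CPM in the culture and 365 CPM in D6 PM, 1.81-fold higher (1.78 to 1.84). *Rps27l* was at 816 and 628 CPM, with a ratio of 1.30 (1.28 to 1.32), and *Rpl22l1* at 367 and 320 CPM, with a ratio of 1.15 (1.12 to 1.17). *Rps12* went the other way, at 26.4 and 75.2 CPM, with a ratio of 0.352 (0.331 to 0.374). *Rps2* did not depart, at 0.689 of its D6 PM level. The libraries differ in their mix of cell types, and fewer cells of a high type cannot be told apart from less RNA per cell in the whole-library values.

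The pluripotent-like cells of these libraries were closer than the whole libraries. Between them, culture code 3 and D6 PM code 2, the class ratio was 0.866 (0.864 to 0.868). By level, 6 of 64 members were lower and 0 higher, beside 7.11% and 8.07% of all genes. Relative to the median member 0 departed upward and 2 downward, beside 21.4% and 3.66%. These were *Rps12*, at 54.5 and 129 CPM, and *Rpl12*, at 50.8 and 92.1 CPM. Between culture code 1 and D6 PM code 4, the D6 PM code led by somite and muscle genes, the ratio was near that of the whole libraries, at 0.673 (0.670 to 0.675), and 4 members departed upward, *Rps4l*, *Rps27l*, *Rpl22l1* and *Rpl41*, with 0 downward, beside 45% and 5.8%. By level, 35 of 60 were lower and 0 higher there, beside 20% and 18.6%.

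Among the mesodermal codes of the culture, the class differed little in its balance. The proliferation-led code 2 had a class ratio of 0.940 (0.937 to 0.944) over code 1, and 0 of 53 members departed in either direction, beside 8.48% and 0.753% of all genes, nor did any differ 1.5-fold in level, beside 7.13% higher and 1.79% lower. The cartilage-like code 4 had a ratio of 1.24 (1.23 to 1.24), and *Rps4l*, at 324 and 438 CPM, and *Rpl22l1*, at 357 and 451 CPM, were the 2 members that departed, both downward, beside 19.6% of all genes, with 0 upward beside 2.38%. By level, 1 of 56 was higher and 0 lower, beside 5.68% and 7.64%. In D6 PM, code 3 likewise showed 0 departing members against code 1, beside 11.1% and 0.423%, at a class ratio of 0.876 (0.874 to 0.878), and 0 of 63 differing 1.5-fold in level, beside 6.34% higher and 1.24% lower. Code 4 had a ratio of 0.703 (0.701 to 0.705) with 3 members upward, *Rps4l*, *Rpl22l1* and *Rpl7l1*, and 0 downward, beside 56.7% and 6.16%, while 15 of 63 were lower and 1 higher by level, beside 11.5% and 20%. The pluripotent-like code 2 of D6 PM had a ratio of 0.882 (0.880 to 0.884) over code 1, with *Rps4l*, *Rps12* and *Rps27l* departing upward and *Rpl27a*, *Rpl15* and *Rpl29* downward, 3 each, beside 34.9% and 16.7%, and with 5 of 64 lower and 3 higher by level, beside 20.1% and 27.7%. *Rps27l* was at 809 and 522 CPM, *Rps12* at 129 and 45.8 CPM, *Rpl27a* at 156 and 308 CPM, *Rpl15* at 135 and 263 CPM and *Rpl29* at 762 and 1284 CPM in codes 2 and 1. *Rps4l*, *Rps12* and *Rps27l* were thus above the rest of the class in this code, and *Rps4l* and *Rps12* were so in the pluripotent-like code 3 of the culture as well. *Rps12* reached 50 CPM only on its higher side in this comparison, in that of culture code 3 with code 1, in D6 PM code 5 against code 1 and between the whole culture and D6 PM, so its departure there is a description.

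Pluripotent-like cells of the culture were compared with the tendon-like cells of the same library. The class was 1.62-fold higher (1.61 to 1.62) in code 3 than in code 1, and 41 of 64 members were at least 1.5-fold higher and 1 was lower, beside 32.8% and 30.8% of all 4952 genes. Relative to the median member, 4 departed upward and 2 downward, beside 16.1% and 50.1%. Of the 4 upward, *Rps4l* was at 1242 and 438 CPM. *Rps12*, at 54.5 CPM in code 3 and 12.9 CPM in code 1, *Rpl12*, at 50.8 and 16.9 CPM, and *Rpl9*, at 55.3 and 22.5 CPM, reached 50 CPM in code 3 alone and would not have been tested had they been low there, so their departure is a description. *Rpl22l1* was lower, at 273 CPM in code 3 and 451 CPM in code 1, while its relative *Rpl22* was higher, at 2790 and 1464 CPM. *Rpl15* was at 90.8 and 113 CPM. Other lists around the ribosome were counted by the same rule. Among proteins that assemble the ribosome in the nucleolus, 16 of 17 genes were at least 1.5-fold higher in code 3, with a median ratio of 3.03. Nucleophosmin (*Npm1*) was at 4749 and 1361 CPM and nucleolin (*Ncl*) at 2699 and 740 CPM. Translation factors were higher for 6 of 14 genes, beside 32.8% of all genes, ribosomal proteins outside the name rule for 4 of 6, and mitochondrial ribosomal proteins for 34 of 77 with 2 lower, with a median of 1.38, beside a median of 1.07 for all genes. *Mycn*, a transcription factor that drives ribosome production, was at 43.0 CPM in code 3 and 7.78 CPM in code 1, and *Myc* at 2.73 and 16.4 CPM.

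Genes outside the class were also compared between the groups above. Between culture and tail in code 1, 0 of 6 other ribosomal proteins and 0 of 14 translation factors were at least 1.5-fold higher and 1, the translation factor *Eif3e*, was lower, at 301 and 457 CPM, beside 15.5% and 18.3% of all genes, and the medians of these lists were 0.797 and 0.945. Elongation factor *Eef1a1* was at 4754 CPM in the culture and 7056 CPM in the tail. Among 11 assembly genes, *Ubtf*, a factor that binds ribosomal DNA, was lower, at 112 and 216 CPM, with a median of 0.914 over the list. Between culture and D6 PM, 8 of 14 translation factors were lower, beside 10.8% of all genes, with a median of 0.652, and *Eef1a1* was at 5715 and 11352 CPM. Of 6 other ribosomal proteins, 4 were lower, with a median of 0.628, and *Rplp0*, of the ribosomal stalk, was at 3101 and 5122 CPM. Assembly genes had a median of 1.02 with 1 of 13 lower, and mitochondrial ribosomal proteins a median of 1.11 with 3 of 77 higher, beside 17.2% of all genes higher and a median of 1.07 for all genes. Between culture code 1 and D6 PM code 4, the assembly genes had a median of 0.664, with 6 of 12 lower and 0 higher. Mitochondrial ribosomal proteins had a median of 0.862 there, with 16 of 77 lower and 1 higher. Of all genes in that comparison, 20% were lower and 18.6% higher, with a median of 0.929. Between culture code 3 and D6 PM code 2, the medians of these lists were 0.958 and 1.13.

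Within the tail, codes 2, 4, 5, 8, 10, 12 and 6 were each compared with code 1, and at most 1 member departed in codes 2, 4, 5 and 8. The class ratio over code 1 was 0.868 (0.864 to 0.872) in code 2, 1.0 (1.0 to 1.01) in code 4, 1.30 (1.30 to 1.31) in code 5 and 1.46 (1.45 to 1.46) in code 8. No member departed in codes 2 and 8, where 15% and 8.74% of all genes were above the median member and 2.24% and 47.3% below. By level, 20 of 61 members were at least 1.5-fold higher and 0 lower in code 8, beside 19.8% and 24.7%, and in code 5 these counts were 5 and 1 of 60, beside 17% and 23%. In codes 2 and 4, 0 were higher and 1 was lower, beside 9.85% and 6.37% in code 2 and 6.19% and 9.17% in code 4. *Rps4l* was the sole departing member in codes 4 and 5, at 135 and 106 CPM compared with 215 CPM in code 1, beside 9.21% and 37.5% of all genes lower and 6.08% and 9.46% higher. In the nerve-like code 10, the class ratio was 0.407 (0.404 to 0.411), and 58 of 59 members were at least 1.5-fold lower and 0 higher, beside 28.6% and 31% of all 5347 genes. *Rpl15* was the exception, at 188 CPM in code 10 and 211 CPM in code 1. Relative to the median member, 3 departed upward (*Rpl15*, *Rpl6* and *Rpl13a*) and 4 downward (*Rps20*, *Rpl22l1*, *Rps19* and *Rps27a*), beside 73.4% and 12.6% of all genes. *Rps27a*, at 17.2 and 62.0 CPM, reached 50 CPM in code 1 alone. All 6 other ribosomal proteins that were tested were also lower, with a median ratio of 0.401, and 10 of 14 translation factors were lower with 1 higher. Mitochondrial ribosomal proteins, which work in a separate ribosome, had a median of 0.859, 18 of 77 lower and 5 higher.

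Levels in the erythroid-like codes 12 and 6 of the tail depend on whether haemoglobin UMIs are counted in the total. Per 1000000 of all UMIs, 59 of 59 members tested were at least 1.5-fold below code 1 in code 12, beside 96% of all 4258 genes lower and 2.96% higher, and the same held for 59 of 59 in code 6, beside 96.5% and 2.01%. Counted without mitochondrial and haemoglobin UMIs, an alternative chosen after seeing these values, the class ratio over code 1 moved from 0.347 (0.343 to 0.352) to 1.119 (1.104 to 1.134) in code 6 and from 0.0884 (0.0861 to 0.0907) to 0.665 (0.648 to 0.683) in code 12. In code 6, 4 of 59 members were then higher and 4 lower, beside 9.04% and 38.8% of all genes, and in code 12, 2 were higher and 42 lower, beside 11.5% and 78.4%. *Rpl41*, which encodes the smallest ribosomal protein, turned from lower, at 1684 CPM in code 12 compared with 3766 CPM in code 1, to higher, at 13116 compared with 3897 CPM. In code 6 it turned likewise, from 2430 CPM to 8096 CPM.

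The total divides every member alike, so departures from the median member are given on all UMIs. In code 12, 14 members departed upward and 8 downward, beside 12.1% and 33.1%, with *Rpl41* 8.86-fold above the median member. *Rpl39*, at 244 and 1389 CPM of all UMIs, *Rpl38*, at 70.6 and 340 CPM, and *Rps29*, at 66.9 and 399 CPM, also departed upward. *Rps18* had 24 UMIs (22.6 CPM) compared with 1319 CPM in code 1, and *Rpl14* had 20 UMIs (18.8 CPM) compared with 1060 CPM. Of the 8 downward, 7 reached 50 CPM in code 1 alone, these among them. In code 6, *Rpl41*, *Rpl39* (778 CPM), *Rpl38* and *Rpl19* departed upward and *Rps27* and *Rpl15* downward, 4 and 2 members beside 5.85% and 36.4%. *Rps27*, at 11.8 and 98.9 CPM, and *Rpl15*, at 39.4 and 211 CPM, reached 50 CPM in code 1 alone.

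**Figure D4:**
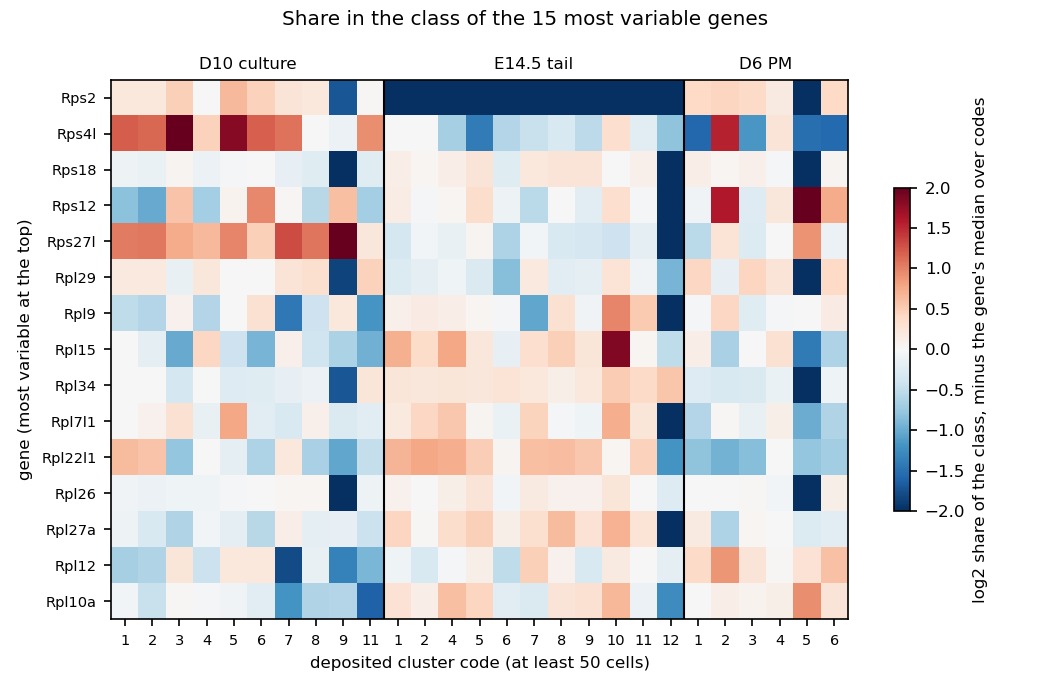
Share in the class of the 15 most variable genes (colour: log2 share minus the gene's median over codes) in each deposited cluster code with at least 50 cells (x axis), with genes ordered from the most to the least variable (y axis). *Rps2* is dark blue over the whole tail block, and *Rps18*, *Rpl29*, *Rpl34* and *Rpl26* are blue in D6 PM code 5 and culture code 9.

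Over the 27 codes with at least 50 cells, the spread of each gene's share of the class was measured as the standard deviation (SD) of its log2 share. The median SD was 0.36 and it was 0.32 without tail code 12. *Rps2* had an SD of 3.24, followed by *Rps4l* with 1.05, *Rps18* with 0.89, *Rps12* with 0.87 and *Rps27l* with 0.82. Among the steadiest were *Rps15* with 0.21, *Rps14* and *Rpl37* with 0.23 each, and *Rpl32* with 0.23. Codes of 1 library share a library, so this spread mixes cell types and libraries.

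Several ribosomal proteins have a close relative encoded by another gene, and these pairs were followed over the codes. *Rps4x* and *Rps4l* went in opposite directions between culture and tail in code 1, with *Rps4x* at 495 and 1056 CPM and *Rps4l* at 438 and 215 CPM. The highest levels of *Rps4l* were in the pluripotent-like codes, 1242 CPM in culture code 3 and 1029 CPM in D6 PM code 2, compared with 135 CPM in D6 PM code 1, a 7.65-fold difference (7.32 to 7.99). It exceeded *Rps4x*, at 879 CPM, in culture code 3, and was below it, at 1357 CPM, in D6 PM code 2. At 3000 UMIs per cell, 92.9% of culture code 3 and 86.8% of D6 PM code 2 had a *Rps4l* UMI, compared with 31.7% of D6 PM code 1, with 7, 120 and 448 shallower cells left out. Without thinning these shares were 99%, 93.8% and 52.3%, at median depths of 10369.5, 11208 and 7406 UMIs. For *Rps27* and *Rps27l*, the standard gene was the low one, at 61.5 CPM in the culture, 85.8 CPM in the tail and 93.4 CPM in D6 PM, compared with 816, 334 and 628 CPM for *Rps27l*. Since no stretch of *Rps27* was unique and all of *Rps27l* were, the levels of this pair cannot be set against each other. The unique part was also unequal for *Rps4x*, at 37.8%, and *Rps4l*, at 82.5%. Which of these 2 has more RNA was therefore not tested, and their order is one of counts.

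In counts, *Rpl22* was above *Rpl22l1* in every code. They had 1464 and 451 CPM in culture code 1, 1610 and 525 CPM in tail code 1, and 3536 and 354 CPM in D6 PM code 1. All stretches of *Rpl22* but only 36.7% of those of *Rpl22l1* were unique, so these levels too are not on 1 scale. *Rpl39l* was not a member but followed the pluripotent-like codes. It was at 47.2 CPM in culture code 3 and 33.4 CPM in D6 PM code 2, at 25.3 CPM in D6 PM code 5 and 22.2 CPM in the white blood-like tail code 9, and at most 0.747 CPM in codes 1, 2 and 4 of the culture. *Rpl39* itself was at 1588 CPM in culture code 3 and 899 CPM in code 1. *Rpl10l* reached 9.81 CPM in culture code 3 and 9.61 CPM in D6 PM code 2, and its highest level in the tail was 0.462 CPM. *Rpl10* did not exceed 39.9 CPM in any code of at least 50 cells. *Rpl3l* did not exceed 3.04 CPM in any code, while *Rpl3* was at 41.7 CPM in culture code 1 and 66.3 CPM in tail code 1. *Rpl7* and *Rpl7l1* were at 123 and 100 CPM in culture code 1, 230 and 129 CPM in tail code 1, and 161 and 57.1 CPM in D6 PM code 5. In culture codes 3 and 5 *Rpl7l1* was the higher of the pair in counts, at 201 and 227 CPM compared with 179 and 163 CPM of *Rpl7*. With 97.6% of its stretches unique and 25.9% of those of *Rpl7*, this order was not tested as one of RNA.

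D6 PM code 5 and culture code 9 shared a set of members that were low against the rest of their libraries. D6 PM code 5 held 662 cells, with a class ratio of 0.536 (0.534 to 0.538) over D6 PM code 1, and 48 of 64 members were at least 1.5-fold lower with 1 higher, beside 31.7% and 27.9% of all 4582 genes. Relative to the median member, 7 departed upward and 9 downward, beside 54.4% and 11.6%, with *Rpl15* and *Rpl3* of the 9 reaching 50 CPM in code 1 alone. Culture code 9 held 53 cells, with a class ratio of 0.761 (0.750 to 0.772) over culture code 1, and 2 members departed upward and 10 downward, beside 30.6% and 21.2%, and 17 of 53 were lower and 1 higher in level, beside 32.5% and 21.7%. The members that were low in both were *Rps2*, *Rps18*, *Rpl15*, *Rpl26*, *Rpl29*, *Rpl34* and *Rpl35a*, 77.8% of the 9 and 70% of the 10. Among the 53 members tested in both comparisons these shares were 87.5% of 8 and 70% of 10, and over all 3841 genes tested in both, where 282 and 651 departed downward and 204 did so in both, they were 72.3% and 31.3%. *Rpl19* and *Rps27l* lay above the median member in both. By level, *Rps27l* was at 761 CPM in D6 PM code 5 and 522 CPM in code 1, whereas *Rpl19* was at 227 and 237 CPM and so did not fall with the class. *Rps18* was at 103 CPM in D6 PM code 5, compared with 1544 to 2471 CPM in the other D6 PM codes, and at 189 CPM in culture code 9, compared with 864 to 1792 CPM. *Rpl29* was at 53.4 CPM, compared with 762 to 1284 CPM, and at 95.7 CPM in culture code 9. *Rpl34* was at 189 CPM, compared with 1514 to 2200 CPM, and at 257 CPM. *Rpl26* was at 242 and 180 CPM, *Rpl35a* at 373 and 255 CPM and *Rpl15* at 48.3 and 54.7 CPM in the same codes. Apart from *Rpl15* in culture code 9, which was matched by the 54.6 CPM of code 11, these levels lay below the range of the other codes of the library. *Rpl32* was also at its lowest among the codes with at least 50 cells, at 6185 CPM in D6 PM code 5 and 4089 CPM in culture code 9. It did not depart from the median member in either code. *Rps12* went the other way in D6 PM code 5, at 141 CPM compared with 45.8 CPM in code 1.

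For *Rps18* and *Rpl26*, a gene with a shared end was high where the member was low. *Gm10260*, which shares stretches with the end of *Rps18*, was at 1008 CPM (5943 UMIs) in D6 PM code 5 and at 515 CPM in culture code 9, but at no more than 4.77 CPM in the other D6 PM codes. *Gm15772*, which shares stretches with *Rpl26*, was at 282 and 166 CPM in these codes and at no more than 3.29 CPM in the other D6 PM codes. Rows named as copies of other ribosomal protein genes were high in these codes too. *Rps24-ps3* was at 1176 and 412 CPM, compared with 46.5 to 57.0 CPM in the other D6 PM codes, while *Rps24* was at 1679 CPM in D6 PM code 5 and 4605 CPM in code 1, but no other gene shares a stretch with the end of *Rps24*. *Rpsa-ps10* was at 1522 and 870 CPM, compared with 53.1 to 77.8 CPM. *Rps3a3*, a processed pseudogene, was at 206 CPM in D6 PM code 5 and 36.4 CPM in culture code 9, and at most 4.44 CPM in the other D6 PM codes, while *Rps3a1* was at 1452 CPM in D6 PM code 5 and 2864 CPM in code 1, falling about as the class did. These rows were looked at after the low levels had been seen. No listed sharing gene at a high level was found for *Rps2*, *Rpl29*, *Rpl34* and *Rpl35a*, and no gene shares a stretch with *Rpl15*. The sharing genes listed for D6 PM were 48 of 51, 50 of 71, 9 of 9 and 13 of 16 for these 4 members in order. They summed to 81.6, 28.3, 6.10 and 12.9 CPM in D6 PM code 5, and the others have no value.

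**Figure D5:**
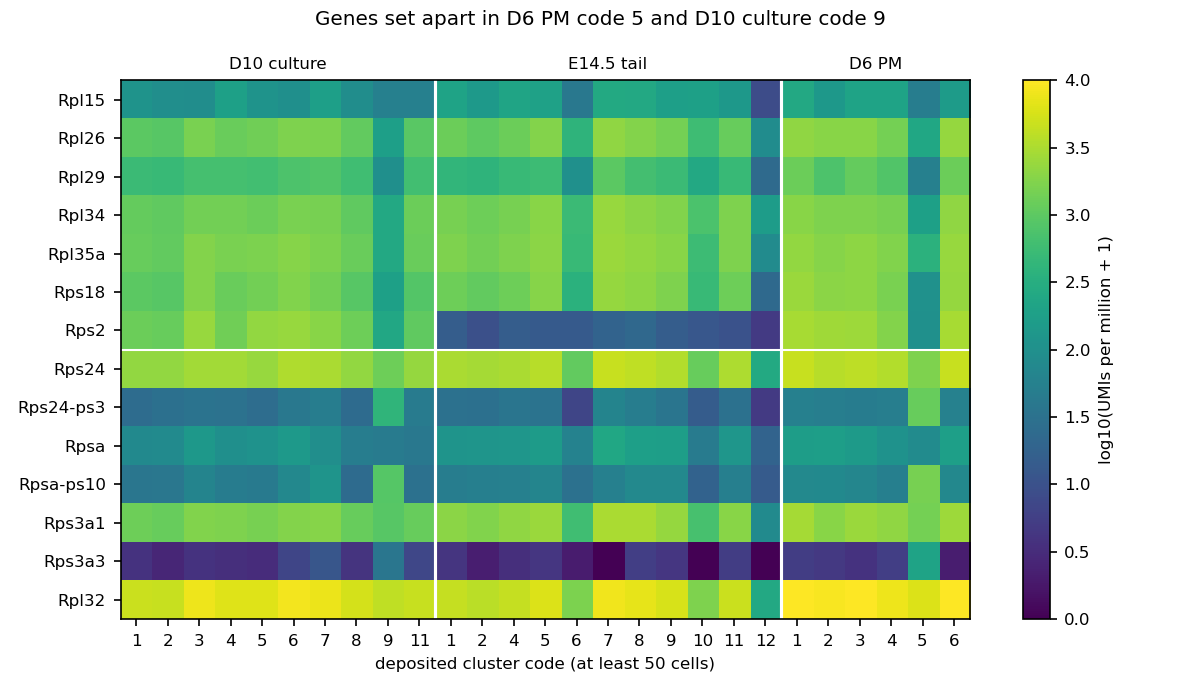
Level (colour, log10 of CPM plus 1) of the 7 members low in both D6 PM code 5 and D10 culture code 9 (upper block) and of *Rps24*, *Rpsa*, *Rps3a1*, the related rows *Rps24-ps3*, *Rpsa-ps10* and *Rps3a3*, and *Rpl32* (lower block) by deposited cluster code (x axis). In these codes the upper genes are darker, and the related rows brighter, than in the other codes of their libraries, apart from *Rpl15* in culture code 9, and in the tail *Rps2* is low in every code.

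Markers of other cells moved with these codes. Of 9 tendon and connective tissue markers listed for D6 PM, 8 were found in code 5, with *Fmod* at 0, and they summed to 8299 CPM, compared with 25.8 to 1088 CPM in the other D6 PM codes. Culture code 9 had 9 of 10 such markers, with *Tnmd* at 0, and 6280 CPM. Of 6 white blood markers, all were found in D6 PM code 5, summing to 783 CPM, and 5 were found in culture code 9, with *C1qb* at 0, summing to 2018 CPM, while no other code of these libraries with at least 20 cells exceeded 17.0 CPM. Both codes had leading genes of white blood cells, *Lyz2* and *Ccl5*, beside a matrix protease, *Mmp13* in D6 PM code 5 and *Mmp3* in culture code 9. The part of these cells in the low levels was not tested. The groups of cells below come from single libraries, some hold few cells, and their values are a description. D6 PM code 5 was divided by markers rather than by ribosomal genes. In 414 cells with at least 3 UMIs of *Col1a1* and more of them than of *Lyz2* and *Tyrobp* together, *Rps2* was at 94.8 CPM (86.2 to 104), *Rps18* at 93.9 CPM and *Rpl32* at 6049 CPM. In 14 cells with at least 3 UMIs of *Lyz2* and *Tyrobp* and more of them than of *Col1a1*, *Rps2* was at 22.2 CPM (7.21 to 51.8), *Rps18* at 80.0 CPM and *Rpl32* at 3666 CPM. In 234 other cells, *Rps2* was at 142 CPM and *Rps18* at 154 CPM. In each of these groups *Rps2* and *Rps18* lay below every other D6 PM code. In culture code 9, divided in the same way, *Rps2* was at 194 CPM (151 to 244) in 35 *Col1a1* cells, 472 CPM (284 to 737) in 4 *Lyz2* and *Tyrobp* cells and 619 CPM (378 to 955) in 14 others. *Rps18* was at 139, 422 and 464 CPM in the same order. Both genes were thus lowest in the *Col1a1* cells of that code, and in all 3 groups they lay below the other culture codes. The white blood-like code 9 of the tail, not divided in this way, held white blood markers at 2443 CPM beside tendon markers at 7191 CPM (10644 CPM in tail code 1), and its pooled levels were 1714 CPM for *Rps18*, 1730 CPM for *Rpl34* and 14.4 CPM for *Rps2*. *Mdm2* was at 464 CPM in D6 PM code 5 and 80.2 CPM in code 1, and 12 of 13 ribosome assembly genes were at least 1.5-fold lower, beside 31.7% of all genes, with a median ratio of 0.404. Thinned to 3000 UMIs, 66 of 472 cells of D6 PM code 5 had a *Rps2* UMI (13.98%, 10.98 to 17.44), compared with 99.9% in code 1, and 10 of 36 in culture code 9 (27.8%, 14.2 to 45.2). Without thinning the share was 26.1% in D6 PM code 5. The labels do not give the origin of these cells. The mESCs had been kept on fibroblast feeders, whose strain is not given in the sources used here, and whether feeder cells are among these codes was not tested.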

How the data were processed

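Single cells of the D10 culture, D6 PM and the E14.5 tail were captured with 10x Genomics 3′ chemistry, 1 library each. The authors aligned the reads with Cell Ranger, ignored reads that matched several places, and deposited counts of UMIs per gene and cell with a cluster code for each cell. They left out cells above 7.5% mitochondrial reads and the bottom and top 2% of cells, and clustered with Seurat 3.0, named with Cell Ranger in the submitters' processing notes. The genome build behind the counts is not given in the sources used here. All value columns could be assigned to a library (0 were not).

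UMIs were summed per library and per code of at least 50 cells (at least 20 for shares) and expressed per 1000000 UMIs (CPM). The class share, and the ratio of each gene with at least 50 CPM in either group, were computed in 23 comparisons. The fold for a called gene was 1.5, with its exact 95% interval beyond 1, or beyond the median member for departures. Against a count of 0 a floor of 3 UMIs applies. For shares of cells with a UMI, cells were thinned to 3000 UMIs and shallower cells left out. Doublets were called with Scrublet in Scanpy 1.11.5 (1.48% of culture, 0.439% of tail and 1.36% of D6 PM cells) and kept in the main values. In the tail the caller marked few cells. The computation of ratios and intervals was tested on simulated counts. With 1 library a group, no test was run, and depth sets counting error only.

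All members could be named. In each comparison, the 5 members with the largest ratio to the median member in each direction were taken among those of at least 50 CPM in the higher group, with the pairs of close relatives, *Rps2*, the 5 most and 5 least variable members, the 3 highest and 3 lowest of each library, and genes of listed groups (other ribosomal proteins, translation factors, assembly, mitochondrial ribosome, regulators). Mitochondrial ribosomal genes entered with 100 UMIs in both groups together. The members and lists were chosen with earlier results of these data known. Gene types and 3′ ends came from GENCODE M21 and promoter windows from RefSeq (GRCm38.p6). Alternatives are listed with their effect below. Python 3.11.15, NumPy 2.4.6, SciPy 1.17.1, pandas 2.3.3 and Matplotlib 3.10.9 were used. A few genes of the lists are not reported here.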

Additional observations from a re-analysis of the deposited data

Results flagged for a closer look

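Some genes with a ribosomal protein name that stayed outside the class over whole libraries passed 50 CPM within single cluster codes. *Rps3a3* had 206 CPM in D6 PM code 5. *Rpl31* had 53.1 CPM in culture code 5, 94.2 CPM in tail code 7, 77.4 CPM in tail code 8, 51.8 CPM in tail code 9, 61.0 CPM in D6 PM code 1, 53.0 CPM in D6 PM code 3 and 53.3 CPM in D6 PM code 6. *Rps13* had 53.8 CPM in tail code 7, 55.1 CPM in tail code 8, 69.1 CPM in tail code 9, 60.0 CPM in tail code 11, 61.0 CPM in D6 PM code 2 and 58.6 CPM in D6 PM code 6. The values of *Rpl11* (53.8 CPM, 12 UMIs), *Rpl27* (76.3 CPM, 17 UMIs) and *Rps7* (80.7 CPM) were all in tail code 7, whose cells had a median of 1881 UMIs. No control library measures a background for these values.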

How the results depend on the processing

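Results were recomputed without called doublets, without cells under 2000 UMIs, as a mean over cells, without mitochondrial and haemoglobin UMIs, with *Rplp0*, *Rplp1*, *Rplp2*, *Rpsa* and *Rack1* added, without *Rps2*, with members from 10 CPM, with a fold of 2, and, chosen after seeing the data, without D6 PM code 5. Of the results recomputed in this way, 1 class ratio changed direction, beside the level of *Rpl41* in tail codes 12 and 6 given above. Without mitochondrial and haemoglobin UMIs, the class ratio of tail code 6 over tail code 1 turned from 0.347 to 1.12, and that of tail code 12 moved from 0.0884 to 0.665 (both chosen after seeing the data). Over the whole libraries the ratio of culture over tail was 1.01 in place of 1.09. The culture share of 6.64% was 6.61, 6.62, 6.61, 6.76, 7.59, 6.47 and 6.66% in the first 7 of these. The tail share of 6.10% was 5.90% as a mean over cells, 6.67% without mitochondrial and haemoglobin UMIs, 6.96% with the added genes and 6.13% from 10 CPM. The D6 PM share was 10.07% without shallow cells, 10.7% as a mean over cells, 10.3% without mitochondrial and haemoglobin UMIs, 11.6% with the added genes, 9.86% without *Rps2*, 10.14% from 10 CPM and 10.6% without code 5. The tendon-like ratio of culture over tail (0.883) was 0.880 without doublets, 0.886 as a mean over cells, 0.871 without mitochondrial and haemoglobin UMIs and 0.863 without *Rps2*. The ratio of culture over D6 PM (0.657) was 0.654 without doublets, 0.616 as a mean over cells, 0.654 without mitochondrial and haemoglobin UMIs, 0.655 with the added genes and 0.626 without code 5. These moves exceed the counting interval, which is narrow at this depth. With a fold of 2, 3 members in place of 8 departed between culture and tail in code 1, and 2 in place of 4 between culture and D6 PM. Without D6 PM code 5, *Rps12* had a ratio of 0.664 to the median member in culture over D6 PM. Leaving out mitochondrial and haemoglobin UMIs moved the share of 2 of 27 codes by over 1.5 times, tail codes 6 and 12. No paired analysis was possible because each group is 1 library. No spread between cultures or embryos was measured, and genes with shared 3′ ends may be undercounted.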
